A study of Mus musculus with 35 samples.

Results

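Tubb3, Nes, Stmn2, Sox2 and Sox9 are genes best known from nerve and cartilage, and reads of all 5 were found in single mouse embryonic fibroblasts. The 5 are taken by symbol from a count table of 19085 genes, and they were chosen because they appeared together in these cells, so their presence and levels are a description with no test. They are set beside Col1a1, a fibroblast collagen gene, and Mki67, a gene of dividing cells. Transcripts were counted in 35 fibroblasts of C57Bl/6J embryos (MEFs), of which 21 had micronuclei, chromatin enclosed apart from the nucleus, and 14 had none. Every cell of both groups was grown at 3% oxygen, received 1 Gy of ionising radiation, was moved to a membrane dish 32 h later, and was stained with PicoGreen and cut out by laser at 48 h, so no unirradiated cell is among them. Each library is 1 cell, made by Smart-seq2, a full-length method for polyadenylated RNA. Which culture or embryo a cell came from is not named, so a group is treated as 1 sample and no p-value or replicate check can be given. Intervals are 95% exact intervals (Poisson for summed reads, Clopper-Pearson for shares of cells), and they cover counting error only: without molecular identifiers, several reads can stem from 1 molecule.

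Tubb3 encodes the beta tubulin typical of neurons, and Stmn2 a stathmin that binds tubulin in growing axons. Nes encodes nestin, an intermediate filament protein of neural and some other progenitor cells. Sox2 and Sox9 encode related transcription factors of the SOX family: Sox2 acts in pluripotent and neural progenitor cells, and Sox9 in cartilage, where it drives collagen II and aggrecan genes, and in neural crest. Connective tissue of the embryo shares part of its origin with cartilage and bone, and cultures of embryonic fibroblasts can hold cells of mixed origin.

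The micronucleated libraries held 57514 to 1794113 reads on genes, with a median of 281800, and the libraries without micronuclei held 56766 to 2023111, with a median of 736715. Between 2391 and 8964 genes were detected in a micronucleated cell (median 6812), and between 3861 and 8229 in a cell without (median 6082). The median share of reads from ERCC spike-in RNA was 0.86% in micronucleated cells and 2.25% in cells without. Mitochondrial reads made up at most 25.7% of reads on genes in a micronucleated cell and 3.81% in a cell without. The groups thus differed in more than depth. The fibroblast label was checked on 14 marker genes. Col1a1, Vim and Fstl1 had at least 5 reads in 35 of 35 cells, Col1a2 and Thy1 in 34 and Prrx1 in 33, while Pdgfra had them in 8 and Lum in 1. The 14 genes together had 3795 to 19223 CPM (CPM being reads scaled to a common total on genes) in micronucleated cells, against 6506 to 18683 CPM in cells without.

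Tubb3 is shown in sequence because these cells carried far more mRNA of its sister gene Tubb5, whose reads it could receive if the genes were too alike. Tubb2b, another sister gene, is shown for comparison and had fewer reads than Tubb3. Sister genes not shown had more than the 1159 reads of Tubb3: Tubb2a had 4381, Tubb4b 7021 and Tubb6 21161. Per kilobase of exon, Tubb3 had 33.6 CPM over the micronucleated cells and 21.4 CPM over those without, while Tubb5, a common beta tubulin of many tissues, had 1688 CPM per kilobase over the micronucleated cells and 2089 over those without. The last 75 coding bases with the stop codon are given for Tubb3 (GRCm38 chr8:123421608-123421682, plus strand), Tubb5 (chr17:35834982-35835056, minus strand) and Tubb2b (chr13:34127471-34127545, minus strand). They are written 5′ to 3′ along the coding strand. Capitals mark bases of Tubb3 not matched by Tubb5, and bases of the other genes not matched by Tubb3, in an alignment of the whole coding sequences.
Tubb3: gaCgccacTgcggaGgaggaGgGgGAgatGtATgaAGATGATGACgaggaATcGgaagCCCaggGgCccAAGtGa
Tubb5: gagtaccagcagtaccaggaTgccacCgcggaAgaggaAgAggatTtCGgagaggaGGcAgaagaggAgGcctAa
Tubb2b: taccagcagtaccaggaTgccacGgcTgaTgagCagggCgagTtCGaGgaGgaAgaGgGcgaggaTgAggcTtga
Over the whole coding sequence, 1102 of the 1353 bases of Tubb3 had a matching base in Tubb5, and in the last 75 bases 43 had one. Tubb2a was closer to Tubb3, with a match for 1131 of its 1338 coding bases. Of the 1819 windows of 50 bases in the Tubb3 transcript, 0 occurred letter for letter in a transcript of another gene. The same was true of Nes, Stmn2, Sox2 and Sox9. How many mismatches the alignment allowed is not given in the sources used here.

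Of the 5 genes 3 share a chromosome without being neighbours. Nes (chr3:87971078-87980451), Stmn2 (chr3:8509360-8561606) and Sox2 (chr3:34650405-34652461) lie on chromosome 3, Tubb3 (chr8:123411424-123422015) on chromosome 8 and Sox9 (chr11:112782224-112787760) on chromosome 11, all on the plus strand of GRCm38. Sox2 is a single exon inside the span of the noncoding gene Sox2ot, and Tubb3 lies inside the span of Gm20388. Neither shares an exonic base with that neighbour, and Sox2ot had 1 read in the table.

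A cell is said to hold a gene if it had at least 5 of its reads. Of the 35 cells, 20 held Sox9, 19 held Tubb3, 14 held Sox2, 13 held Stmn2 and 11 held Nes. Col1a1 was held by 35 cells and Mki67 by 14. Over all 19085 genes the median gene was held by 3 cells, and over the 8390 genes measured (at least 5 CPM over all cells summed and 5 reads in at least 5 cells) by 16. Among measured genes the 5 were thus neither rare nor widespread.

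**Figure D1:**
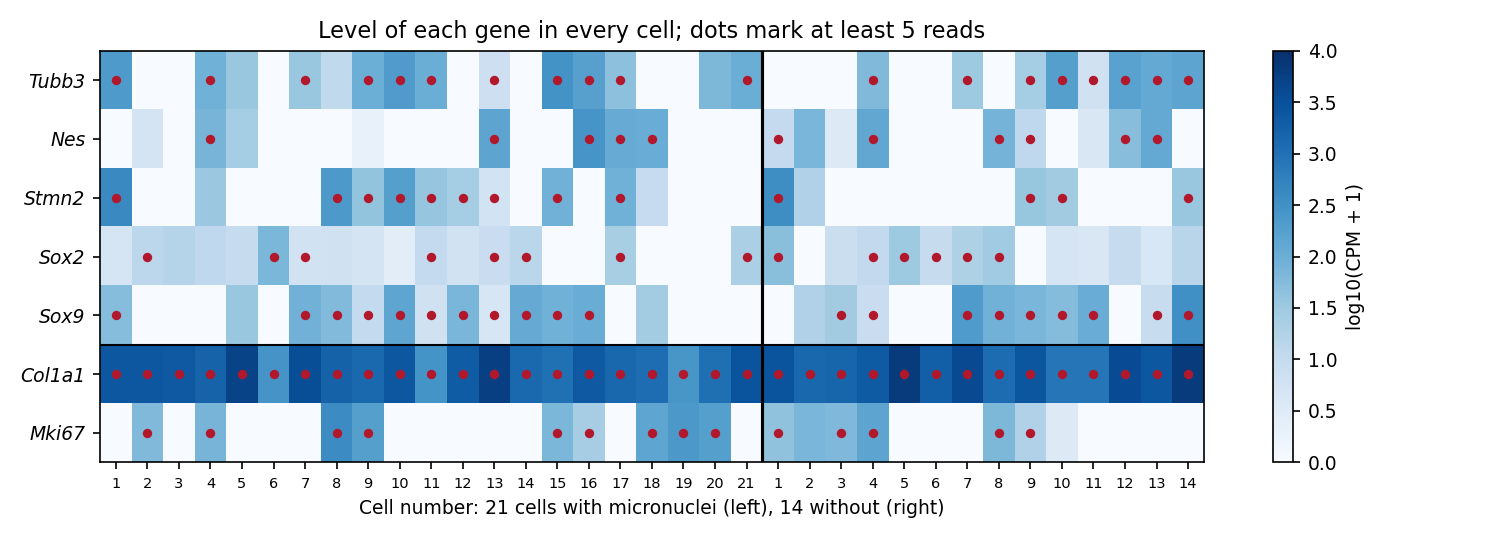
Level of each gene in every cell, as log10(CPM + 1) by colour, with the 21 micronucleated cells left of the black line and the 14 without micronuclei right of it. Dots mark cells with at least 5 reads. Col1a1 has a dot in 35 cells, while the 5 neural and cartilage genes have dots in 11 to 20 cells spread over both groups.

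Tubb3 ranged from 5.15 to 293.6 CPM in the 19 cells that held it (median 99.2 CPM). In all micronucleated cells its lowest, median and highest values were 0, 34.6 and 293.6 CPM, against 0, 15.1 and 177.6 CPM in cells without. The highest 2 were micronucleated cells 15 and 1, at 293.6 and 227.1 CPM. The cells that did not hold the gene mostly had no read of it: 13 cells had 0 reads, and 3 more had 4, just under the minimum. Of these 3, micronucleated cells 20 and 5 stood at 65.1 and 33.5 CPM, above the lowest of the cells that held it. Whether the mRNA was absent from cells with 0 reads was not tested.

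Stmn2 ranged from 4.46 to 408.1 CPM in the 13 cells that held it (median 38.8 CPM). Its lowest, median and highest values were 0, 4.46 and 408.1 CPM in micronucleated cells and 0, 0 and 363.3 CPM in cells without. The 2 highest cells were in different groups, micronucleated cell 1 at 408.1 CPM and cell 1 without micronuclei at 363.3 CPM. No read of Stmn2 was counted in 19 cells, and 3 had 1 to 4 reads. Stmn1, the stathmin common in dividing cells, was held by 12 micronucleated cells and 8 without, at 53.9 CPM in the summed reads of micronucleated cells and 34 CPM in those of cells without.

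Nes ranged from 9.27 to 267.7 CPM in the 11 cells that held it (median 104.2 CPM). Its lowest, median and highest values were 0, 0 and 267.7 CPM in micronucleated cells and 0, 6.11 and 131.9 CPM in cells without. Micronucleated cell 16 stood highest, followed by micronucleated cell 13 at 144.9 CPM and cell 4 without micronuclei at 131.9 CPM. Nes was at 0 reads in 18 cells and at 1 to 4 reads in 6. Vimentin, the intermediate filament protein that nestin assembles with, had its gene Vim held by all 35 cells.

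Sox2 had the fewest reads of the 5, 271 in all cells, and they were spread thinly. It had at least 1 read in 28 cells but at least 5 in only 14, with 1 to 4 reads in the other 14. In the cells that held it the level ranged from 4.84 to 68.1 CPM (median 15.9 CPM). Its lowest, median and highest values were 0, 5.24 and 68.1 CPM in micronucleated cells and 0, 8.42 and 48.2 CPM in cells without. The highest 3 were micronucleated cell 6 at 68.1 CPM, cell 1 without micronuclei at 48.2 CPM and cell 5 without at 30.3 CPM. These cells had few genes detected, 2391, 3861 and 3926. Micronucleated cell 6 also held only 3 of the 14 fibroblast genes. Its Col1a1 stood at 281.4 CPM (rank 34 of 35), and it had 1452 CPM of the macrophage marker Csf1r. Over the 35 cells Sox2 CPM ran against the number of genes detected (Spearman rho −0.63, a description over cells that share depth and library quality), while rho for Tubb3, Stmn2, Nes and Sox9 was 0.41, 0.37, 0.14 and 0.44. The part of gene number in the Sox2 reads was not tested.

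Sox9 ranged from 3.34 to 335.2 CPM in the 20 cells that held it (median 69.8 CPM). Its lowest, median and highest values were 0, 9.44 and 140.6 CPM in micronucleated cells and 0, 22.3 and 335.2 CPM in cells without. The highest 2 were cells 14 and 7 without micronuclei, at 335.2 and 214.0 CPM. Sox9 was at 0 reads in 12 cells and at 1 to 4 reads in 3. Per kilobase of exon, the summed level in micronucleated cells was 33.6 CPM for Tubb3, 11.4 for Sox9, 7.33 for Stmn2, 6.16 for Nes and 4.39 for Sox2, beside 379.2 for Col1a1. In cells without micronuclei it was 21.4 CPM for Tubb3, 17.9 for Sox9, 7.16 for Sox2, 5.65 for Nes and 3.77 for Stmn2, beside 398.5 for Col1a1. By this length Tubb3 and Sox9 led in both groups, while the order of the other 3 differed. The length counts all annotated exons, 5602 bases for Stmn2, whose longest coding transcript has 2073 bases. The place of Stmn2 in the order thus depends on the length used.

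At least 1 of the 5 genes was held by 30 of the 35 cells. Exactly 1 was held by 6 cells, 2 by 7, 3 by 12, 4 by 4 and all 5 by 1. At least 3 were held by 9 of 21 micronucleated cells (42.9%, interval 21.8 to 66.0%) and 8 of 14 cells without (57.1%, interval 28.9 to 82.3%). The intervals overlap widely. The 5 cells that held none were micronucleated cells 3, 5, 19 and 20 and cell 2 without micronuclei, with 56766 to 203690 reads each, and 3 of them were among the 5 shallowest of all.

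Depth moved with this count. Over the 35 cells the number of the 5 genes held was higher in deeper cells (Spearman rho 0.59 with reads on genes, a description). Each of the 30 cells with enough reads was therefore thinned at random to 119337 reads, which left out 4 micronucleated cells and 1 without. At that depth rho was −0.08, and at least 3 of the genes were held by 7 of 30 cells, 5 of 17 micronucleated and 2 of 13 without. The order of the groups' shares was the opposite of that at full depth. Thinned cells holding each gene numbered 15 for Tubb3, 14 for Sox9, 10 for Stmn2, 7 for Nes and 2 for Sox2. Sox2 was thus the gene that thinning removed from the most cells.

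**Figure D2:**
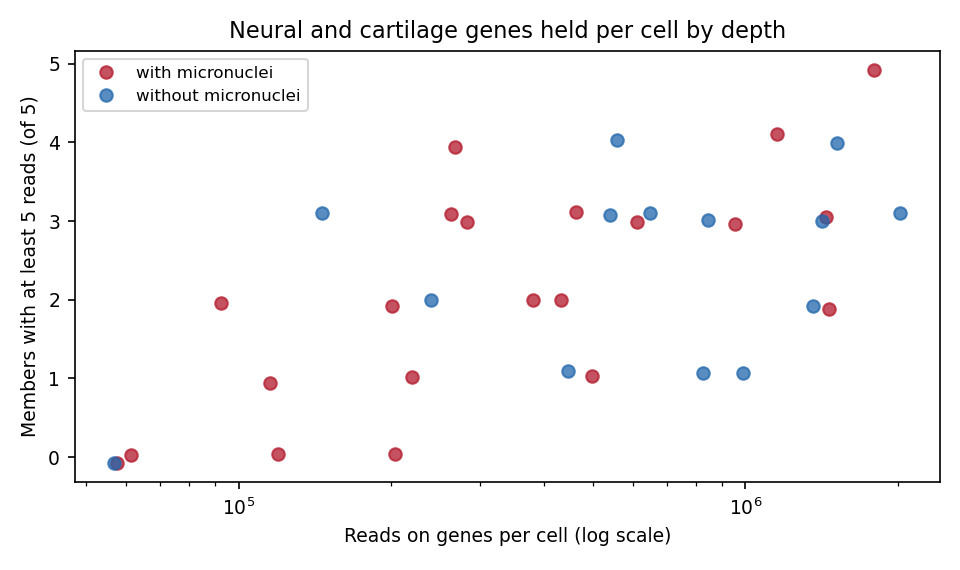
Number of the 5 genes held per cell (at least 5 reads, vertical axis) against reads on genes in that cell (horizontal log axis), 1 point a cell, with points shifted slightly up or down to separate them. The 1 cell with all 5 genes is a micronucleated cell with 1794113 reads, and the 5 cells with none had at most 203690.

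The single cell with all 5 genes, micronucleated cell 13, had 1794113 reads. Nes stood at 144.9 CPM (260 reads) there, while Sox2, Tubb3, Stmn2 and Sox9 stood at 7.25, 6.13, 4.46 and 3.34 CPM (13, 11, 8 and 6 reads). Its Col1a1 level, 5636 CPM, was rank 3 of 35. The cell had 0 reads of Mki67 but held 11 of 16 other listed mitotic genes. Only Nes was above 10 CPM in it, and the other 4 passed the minimum at 6 to 13 reads.

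Cell 4 without micronuclei held Tubb3, Nes, Sox2 and Sox9 at 61.3, 131.9, 9.89 and 7.25 CPM. It also had 143.7 CPM of Mki67 (rank 5) and 2187 CPM of Col1a1 (rank 17). Cell 9 without micronuclei held Tubb3, Nes, Stmn2 and Sox9 at 25.1, 10.7, 35.8 and 69.8 CPM, with Col1a1 at 2607 CPM (rank 10) and Mki67 at 17.9 CPM. These cells thus carried the neural genes together with collagen and Mki67.

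Micronucleated cell 17 held Tubb3, Nes, Stmn2 and Sox2 at 44.9, 108.5, 86.1 and 22.4 CPM, with Col1a1 at 1399 CPM (rank 24). Micronucleated cell 11 held Tubb3, Stmn2, Sox2 and Sox9 at 101.3, 38.1, 9.52 and 5.19 CPM, with Col1a1 at 288.3 CPM (rank 33). Both had 0 reads of Mki67. Cell 11 was thus near the bottom in Col1a1, and cell 13 near the top.

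Of the 12 cells with exactly 3 of the genes, 6 held Tubb3, Stmn2 and Sox9. They were micronucleated cells 1, 9, 10 and 15 and cells 10 and 14 without micronuclei, with Col1a1 at ranks 12, 26, 11, 30, 32 and 2. Micronucleated cell 7 and cell 7 without held Tubb3, Sox2 and Sox9, at Col1a1 ranks 7 and 5. Micronucleated cell 16 and cell 13 without held Tubb3, Nes and Sox9, at Col1a1 ranks 16 and 13. Cell 1 without micronuclei held Nes, Stmn2 and Sox2 (Col1a1 rank 8), and cell 8 without held Nes, Sox2 and Sox9 (rank 27). Cells with 3 or more of the genes thus stood at ranks 2 to 33 of 35 in Col1a1. Over all 35 cells rho between the number held and Col1a1 CPM was 0.17, and −0.07 after thinning, which is too weak to read.

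Mki67 was held by 7 of the 17 cells with 3 or more of the genes, 3 micronucleated and 4 without, and 9 of the 17 had 0 reads of it. Those with 0 reads still held 1 to 11 of the 16 other mitotic genes. Micronucleated cells 7 and 11 held 1 each, cell 14 without micronuclei held 10 and micronucleated cell 13 held 11. Whether a cell was dividing was not tested. The highest Mki67 among the 17 cells was 178.3 CPM in micronucleated cell 9 (rank 4). Of the 11 cells with Nes, 7 also held Mki67, beside 14 of all 35 cells. After thinning 2 of the 7 cells with Nes held Mki67, beside 8 of all 30, and the overlap was not tested. Mki67 was held too by 8 cells with Sox9, 6 with Tubb3, 5 with Stmn2 and 4 with Sox2. Over the 35 cells rho between the number held and Mki67 CPM was −0.16, and 0.21 after thinning.

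At full depth Tubb3 and Sox9 were the pair held together most often, in 15 cells, 8 micronucleated and 7 without. These are 78.9% of the cells with Tubb3 and 75% of those with Sox9, while 57.1% of all cells held Sox9 and 54.3% held Tubb3. After thinning 8 cells held both, of 15 with Tubb3 and 14 with Sox9 among 30 cells. As many thinned cells held Tubb3 with Stmn2. Stmn2, held by 37.1% of all cells, was held with Sox9 in 11 cells (84.6% of Stmn2 cells, 55% of Sox9 cells). It was held with Tubb3 in 10 (76.9% of Stmn2 cells, 52.6% of Tubb3 cells). Nes, held by 11 cells against 20 for Sox9, was held with Tubb3 in 8 cells and with Stmn2 in 4. A gene held by more cells meets the others more often, and the overlaps were not tested. Sox2 shared 7 cells with Tubb3 and 7 with Sox9 at full depth and 0 with either after thinning. Only 2 thinned cells held Sox2 at all, too few to read an overlap from.

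Reads were next summed over the cells of each group and compared as log2((CPM with micronuclei + 1)/(CPM without + 1)). None of the 5 genes differed by more than 2-fold in the summed reads, while 37.7% of the 8390 measured genes did, 22.9% higher and 14.7% lower in micronucleated cells. The median of all measured genes was 0.15 on this log2 scale. The 5 were chosen on these cells, so nothing further is read from their count.

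Tubb3 had 62.7 CPM (interval 58.1 to 67.5) in micronucleated cells, against 40.0 CPM (36.4 to 43.8) in cells without, a log2 ratio of 0.64. Stmn2 had 41 CPM (37.4 to 45) in micronucleated cells, against 21.1 CPM (18.5 to 23.9) in cells without, a log2 ratio of 0.93. Its ratio turned on single cells: cell 1 without micronuclei gave 28% of all its reads, and without that cell the ratio was 2.95. Stmn2 was also just past 2-fold as a difference of mean log2(CPM + 1), at 1.01, and in thinned cells, at 1.09, but stood at 0.28 with scran size factors. Leaving out cell 10 without micronuclei moved the Tubb3 ratio to 1.08, and leaving out micronucleated cell 10 moved it to 0.43. Per cell, the mean was 70.6 ± 87.3 CPM against 52.0 ± 68.5 CPM for Tubb3 and 54.0 ± 102.3 CPM against 34.2 ± 95.7 CPM for Stmn2 (micronucleated against without, SD over 21 and 14 cells). For both genes the difference of the means was smaller than the spread between cells.

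Nes had 39.5 CPM (35.9 to 43.4) in micronucleated cells, against 36.3 CPM (32.9 to 39.9) in cells without, a log2 ratio of 0.12. Its direction was not settled: leaving out 1 cell turned the sign in 5 of 35 cases. The ratio was −0.89 without micronucleated cell 13, which gave 30.3% of the reads, and −0.29 without micronucleated cell 16. Leaving out cell 7 or cell 4 of those lacking micronuclei gave −0.15 and 0.82. Nes was held by 5 of 21 micronucleated cells (23.8%, interval 8.22 to 47.2%) and 6 of 14 cells without (42.9%, 17.7 to 71.1%), with overlapping intervals. Sox2 had 9.02 CPM (7.34 to 11) in micronucleated cells, against 14.7 CPM (12.6 to 17.1) in cells without, a log2 ratio of −0.65. That ratio stayed between −0.83 and −0.48 when any 1 cell was left out. With every cell weighted equally it was −0.33, and with scran size factors −0.28. Of the cells, 8 of 21 micronucleated cells (38.1%) and 6 of 14 cells without (42.9%) held the gene.

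Sox9 had 47.3 CPM (43.3 to 51.5) in micronucleated cells, against 73.9 CPM (69.0 to 79.0) in cells without, a log2 ratio of −0.63. Cell 7 without micronuclei gave 31.3% of its 1382 reads, and without that cell the ratio was 0.091. Sox9 was held by 11 of 21 micronucleated cells (52.4%, interval 29.8 to 74.3%) and 9 of 14 cells without (64.3%, 35.1 to 87.2%). Tubb3 was held by 11 of 21 micronucleated cells (52.4%) and 8 of 14 cells without (57.1%), and Stmn2 by 9 of 21 micronucleated cells (42.9%) and 4 of 14 cells without (28.6%). For each of the 5 genes the values of the groups overlapped from 0 upward.

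Col1a1 had 2489 CPM over the micronucleated cells and 2616 CPM over those without, a log2 ratio of −0.07. That ratio was −0.48 without micronucleated cell 13, 0.15 when cell 5 of those lacking micronuclei was left out, −0.46 with every cell weighted equally and −0.58 with scran size factors. Its lowest, median and highest values were 260.8, 1679 and 5636 CPM in micronucleated cells and 837.1, 2352 and 6687 CPM in cells without. Mki67 had 38.2 CPM over the micronucleated cells and 32.5 CPM over those without, a log2 ratio of 0.23 that was −0.37 when micronucleated cell 9 was left out and 1.23 when cell 4 without micronuclei was. With every cell weighted equally it was 1.13, with scran size factors 1.09 and in thinned cells 0.87.

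**Figure D3:**
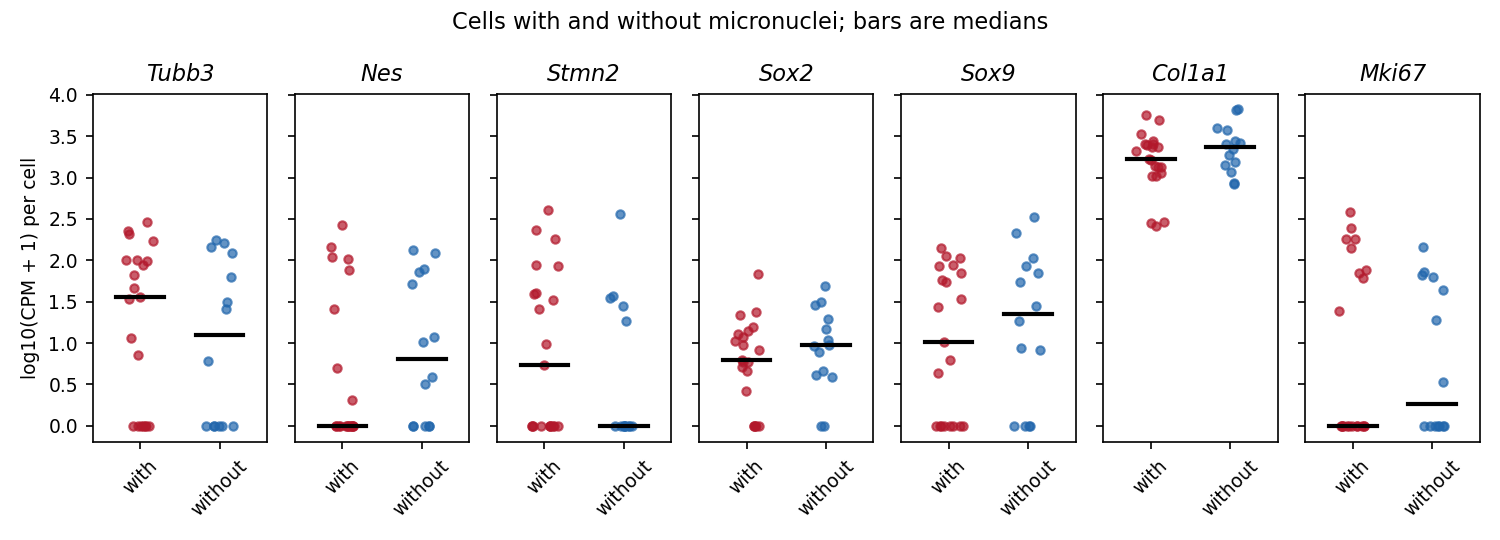
Level of each gene per cell as log10(CPM + 1), 1 point a cell (shifted sideways to separate them), in cells with micronuclei (red, n = 21) and without (blue, n = 14); black bars are medians. The points of both groups overlap for each gene, and only Col1a1 has no cell at 0.

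Further genes of nerve, cartilage and related tissues were taken from lists, and many genes that define mature neurons or chondrocytes were held by few cells or by 0. Of 24 neuronal genes 19 were in the table, 14 were held by at least 1 cell and 8 were measured. Of the measured ones 1 was higher and 0 were lower by more than 2-fold, against 22.9% higher and 14.7% lower among all measured genes. The median log2 ratio was 0.20, beside 0.15 over all measured genes, and the 8 include Tubb3 and Stmn2. Ncam1, an adhesion molecule of nerve and muscle, was held by 33 cells, at 364.4 CPM in micronucleated cells and 349.6 CPM in cells without. Dpysl3, a cytoskeletal regulator of axons, was held by 32, at 272.3 CPM in micronucleated cells and 356.4 CPM in cells without. Uchl1, a ubiquitin hydrolase abundant in neurons, was held by 25, at 57.0 CPM in micronucleated cells and 55 CPM in cells without. Of the exonic bases of Uchl1, 18.1% overlap an antisense gene, whose reads cannot be told apart here. These 3 were thus held by more cells than Tubb3 or Stmn2.

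Other neuronal genes were sparse. Rbfox3, which encodes the neuronal nuclear antigen NeuN, had 3 reads in all and was held by 0 cells, as were Elavl3 (4 reads), the synaptic gene Syt1 (1 read), the transcription factor gene Neurod1 (2 reads) and Gng3 (14 reads). The synaptic gene Snap25 and the dendritic gene Map2 were held by 2 cells each, and the neurofilament genes Nefl and Nefm by 1 each. Gap43, a growth cone gene, was held by 8 cells, Crmp1 by 5 and Tagln3 by 4. Cells with 3 or more of the genes held 2 to 7 of the 17 other neuronal genes, and all cells together 1 to 7. The 1 neuronal gene past 2-fold was Sox11, a SOX factor of immature neurons, at 178.5 CPM in micronucleated cells and 15.9 CPM in cells without. Micronucleated cell 13, the cell that held all 5 genes, gave 81.8% of its reads, and without that cell the log2 ratio was 0.47, against 3.41 with it.

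Of 14 neural progenitor genes 9 were in the table and 3 were measured, Nes, Sox2 and Slc1a3. Of these 1 was higher and 0 were lower by more than 2-fold, against 22.9% and 14.7% of all measured genes. The list's median log2 ratio of 0.12 is that of Nes. Slc1a3, a glutamate transporter gene of radial glia and astrocytes, was held by 5 cells. It had 13.4 CPM in micronucleated cells and 2.76 CPM in cells without, and its log2 ratio of 1.94 was −0.81 without micronucleated cell 14. Pax6 (1 read) and Sox1 (12 reads) were held by 0 cells, Msi1, Fabp7 and Prom1 by 2 each and Notch1 by 1. Nanog, the 1 pluripotency gene of 6 in the table, was held by 0 cells. Among neural crest and Schwann genes, Mbp was held by 4 cells, Tfap2a by 1 and S100b and Tfap2b by 0.

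Of 21 cartilage genes 12 were in the table, 8 were held by at least 1 cell and 3 were measured, Sox9 itself, Col11a1 and Prg4. Of these 0 were higher and 1 was lower by more than 2-fold, against 22.9% and 14.7% of all measured genes. So few genes are too few to read a share from. The list's median log2 ratio of −0.63 is that of Sox9. Col11a1, a fibrillar collagen gene of cartilage also made by other connective tissue, was held by 16 cells, 8 in each group, at 38.2 CPM in micronucleated cells and 98.8 CPM in cells without. Cell 5 without micronuclei, which held Sox2 but not Sox9, gave 64.5% of its reads, and the log2 ratio of −1.35 was 1.51 without that cell. Acan, the gene of aggrecan, had 3 reads and was held by 0 cells, as were Comp and Hapln1 with 2 reads each, and Sox5, a partner of Sox9 in cartilage, had 0 reads. Col2a1, the collagen II gene, was held by 3 cells: micronucleated cell 13 at 476.0 CPM (854 reads), cell 1 without micronuclei at 183.5 CPM (99 reads) and cell 2 without at 845.6 CPM (48 reads). Sox9 in those cells stood at 3.34, 0 and 17.6 CPM (6, 0 and 1 reads), so the cells with the most Sox9 were others. Cell 2 without micronuclei, the shallowest library at 56766 reads, held 4 of the 11 other cartilage genes, the most of any cell. Col2a1, Prg4 (11 reads) and Sox6 (5 reads) were among them, and the other cartilage genes summed to 1621 CPM in that cell. At least 1 further cartilage gene was held by 19 of all 35 cells, 11 of them among the 17 with 3 or more of the 5 genes.

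**Figure D4:**
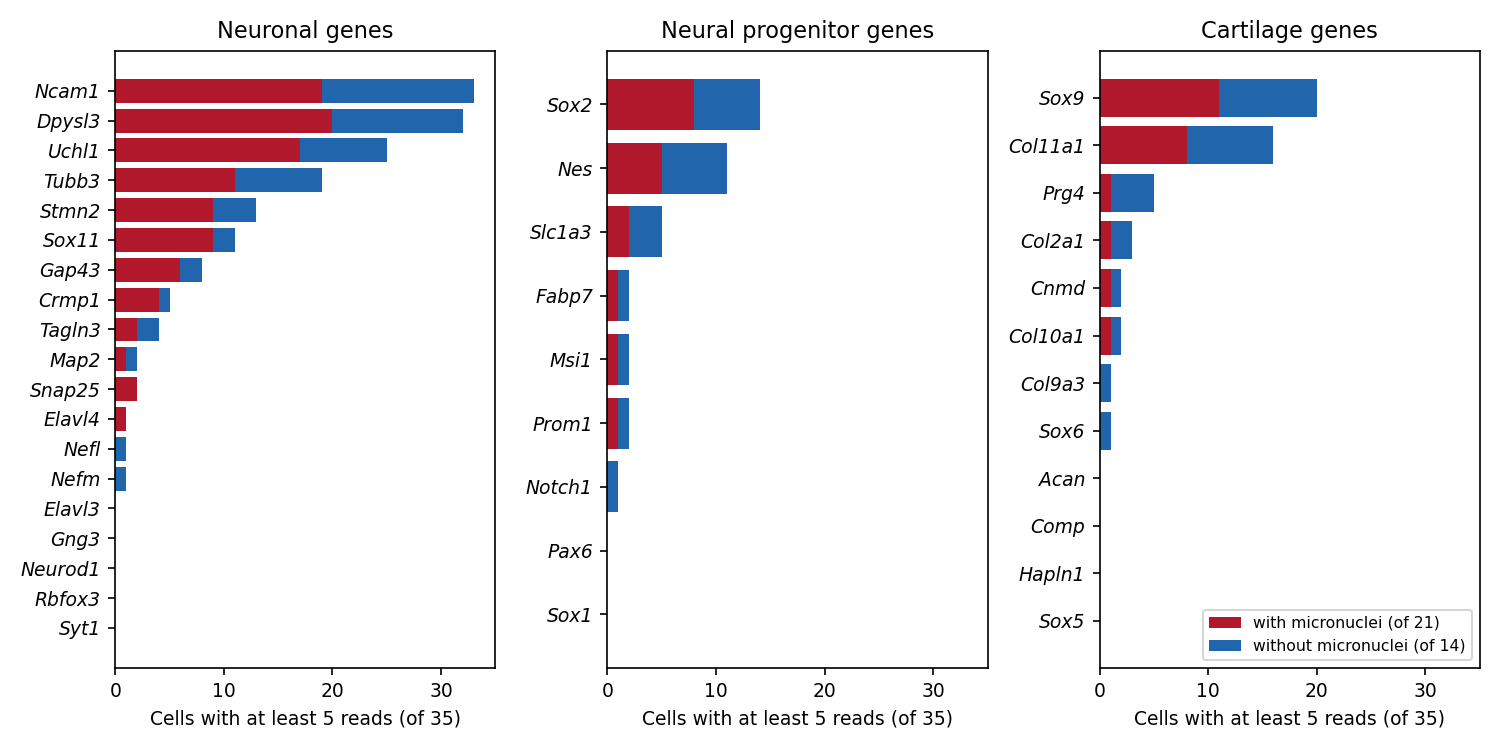
Number of cells with at least 5 reads (of 35) for the neuronal, neural progenitor and cartilage genes in the table, split into cells with micronuclei (red, of 21) and without (blue, of 14). Ncam1 and Dpysl3 are held by 33 and 32 cells, while Rbfox3, Syt1, Pax6 and Acan are held by 0.

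Close relatives of the 5 genes were compared as families. Of 8 beta tubulin genes 6 were measured, Tubb3 among them. Of the 6, 2 were higher and 0 lower by more than 2-fold, against 22.9% and 14.7% of all measured genes, and the median log2 ratio was 0.59. Tubb2a had 273.7 CPM in micronucleated cells and 116.0 CPM in cells without, a log2 ratio of 1.23 that was 0.95 with every cell weighted equally. Tubb2b had 17.2 CPM in micronucleated cells and 6.37 CPM in cells without, and as near copies these genes may share reads. Tubb5 had 5616 CPM in micronucleated cells and 6951 CPM in cells without. Of 16 SOX genes 9 were in the table and 4 were measured, of which Sox2 and Sox9 are described above. Of the other 2, Sox11 was higher and Sox4 lower by more than 2-fold. Sox4, a SOX factor of many progenitors, was held by 25 cells at 19.6 CPM in micronucleated cells and 45.9 CPM in cells without, but 54.6% of its exonic bases overlap a noncoding gene on the other strand. Its log2 ratio of −1.19 was −0.45 without cell 8 of the cells without micronuclei.

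Markers of macrophages stood out in 1 cell that counts toward the neural genes. Micronucleated cell 10 held 9 of 9 macrophage markers, which summed to 16348 CPM, 13946 CPM of it from the lysozyme gene Lyz2, beside Col1a1 at 2542 CPM (rank 11). The same cell held Tubb3, Stmn2 and Sox9 at 207.6, 178.2 and 140.6 CPM. The markers summed to a median of 0 CPM in both groups, and to at most 64.1 CPM in cells without micronuclei. Of the other micronucleated cells, cell 6 had 1452 CPM of Csf1r alone, and 15.1% of the exonic bases of that gene overlap Hmgxb3 on the other strand. Micronucleated cells 18 and 4 had marker sums of 468.8 and 325.3 CPM. Without cell 10 the log2 ratios were 0.43 for Tubb3, 0.62 for Stmn2 and −0.81 for Sox9. The part of macrophage RNA in the reads of that cell was not tested.

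Genes whose CPM ran most like each of the 5 over the 35 cells were taken among the other measured genes by Spearman rho, as a description over cells that share depth and gene number. For Tubb3 these were Gemin7 (rho 0.64), Arfip2 (0.62) and Gemin6 (0.62), and over the 30 thinned cells the values were 0.72, 0.62 and 0.52. Of the exonic bases of Gemin7 14.8% overlap Zfp296, and of those of Arfip2 5.65% overlap Timm10b, on the other strand. For Stmn2 they were Loxl4 (0.70), Dlx2 (0.66) and Hps5 (0.65), and 0.73, 0.45 and 0.65 after thinning. For Sox9 they were Nr2f2 (0.76), Srsf11 (0.72) and Slc45a4 (0.67), and 0.65, 0.59 and 0.67 after thinning. None of the other 4 genes was among these closest genes, which encode proteins as varied as a lysyl oxidase (Loxl4) and a nuclear receptor (Nr2f2). For Nes they were Tmem2 (0.69), Ddit4l (0.58) and Fads3 (0.54), and 0.59, 0.38 and 0.53 after thinning. For Sox2 they were Gm10443 (0.60), Sra1 (0.53) and Acsl4 (0.49), which were 0.10, 0.41 and 0.20 after thinning, so the Sox2 pattern was mostly not kept at equal depth.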

How the data were processed

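The authors deposited whole-number read counts per gene, not normalized, for 35 single cells; 62 ERCC spike-in rows were kept out of totals. Alignment used STAR and the build GRCm38.p5, per the submitters' processing notes, and reads were counted with Rsubread and filtered with scater, per the deposited phenotype table. Their versions and whether strand was used are not given in the labels or files used here. Columns of other samples left unused numbered 0. Replicate numbers follow accession order and name cells only.

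The 5 genes, the lists and the tests were chosen with earlier results of these data known. Counts were summed over the cells of each group (11084425 and 11612303 reads, with micronuclei and without) and scaled to CPM, and 1 CPM was added before log2. Genes are named by rule: the 5, Col1a1 and Mki67, up to 3 other genes of each of 16 lists held by the most cells, the 3 measured genes of highest rho with each of the 5, and list genes found in cells with 3 or more of them. List genes named because few or 0 cells held them, and Tubb2a, Tubb2b, Pdgfra and Lum, were chosen after their values were seen. Some genes of the neural crest and Schwann list are not reported here. Thinning was 1 seeded draw without replacement. No doublet caller was run on laser-cut cells. The log2 ratio was tested on simulated Poisson counts with known folds. The simulated cells differed in depth but not in the level of a gene within a group, so only the calculation was checked. As alternatives, cells were weighted equally or averaged as log2(CPM + 1), totals were scaled by TMM or scran factors, 0.1 or 5 CPM was added, and there were other read minimums (1 or 10 reads, 10 CPM), other filters for the lists, thinning and leaving out each cell. Positions and sequences come from GENCODE annotation and transcripts of GRCm38. Tools were R 4.3.3 with scran 1.30.0 and edgeR 4.0.16 (TMM factors only), and Python 3.11.15 with biopython 1.88, pandas 2.3.3, numpy 2.4.6, matplotlib 3.10.9 and scipy 1.17.1.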

Additional observations from a re-analysis of the deposited data

How the results depend on the processing

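None of the 5 genes was past 2-fold in the summed reads. No log2 ratio crossed to a called change in the opposite direction, but Nes came just short of it. With every cell weighted equally the ratio was 0.43 for Tubb3, 0.65 for Stmn2 and −0.33 for Sox2. Stmn2 passed 2-fold as a difference of mean log2(CPM + 1), at 1.01, and after thinning, at 1.09. With scran size factors it was 0.41 for Tubb3, 0.28 for Stmn2, −0.28 for Sox2 and −0.99 for Sox9. Nes stood at −0.9995 as a difference of mean log2(CPM + 1), just short of a 2-fold call, and at −0.02 with TMM, so it has no settled direction. Without the cell that held 3 or more macrophage markers, a choice made after seeing the data, the ratios were 0.43 for Tubb3, 0.62 for Stmn2 and −0.81 for Sox9. Leaving out each cell in turn gave 0.43 to 1.08 for Tubb3, −0.89 to 0.82 for Nes, 0.56 to 2.95 for Stmn2, −0.83 to −0.48 for Sox2 and −0.97 to 0.091 for Sox9. Cells with 3 or more of the genes numbered 26 with at least 1 read, 14 of them micronucleated. After thinning they numbered 7, 5 micronucleated and 2 without. With at least 10 reads there were 12, 7 micronucleated and 5 without. At a minimum of 10 CPM there were 14, 8 micronucleated and 6 without. The cause of these shifts was not tested, except that thinning lowers every count. The median of all measured genes was 0.15 in the summed reads, 0.01 with TMM, 0.30 as mean log2(CPM + 1) and 0.05 with equal weights. No paired analysis was possible because replicate numbers were given in accession order and pair no cells. Sox2, with 271 reads, is the gene most limited by depth.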

Other observations

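Genes of bone and muscle were also found in these fibroblasts. Spp1, which encodes osteopontin, was held by 26 cells at 1318 CPM in micronucleated cells and 817.2 CPM in cells without; micronucleated cell 14 gave 37.3% of its reads, and the log2 ratio of 0.69 was −0.48 without that cell. Runx2, a transcription factor gene of bone, was held by 8 cells, 4 in each group, at 11.3 CPM in micronucleated cells and 20.9 CPM in cells without; 5.87% of its exonic bases overlap an antisense gene. Acta1, the skeletal muscle actin gene, was held by 26 cells at 828.5 CPM in micronucleated cells and 319.5 CPM in cells without, a log2 ratio of 1.37 that stayed between 0.82 and 1.74 when any 1 cell was left out. The other muscle genes in the table were sparse and lower in the summed reads of micronucleated cells, Ttn in 6 cells (log2 ratio −0.65) and Des in 4 (−1.61). Krt19, a keratin gene, was held by 18 cells at 67.8 CPM in micronucleated cells and 44.8 CPM in cells without, while Krt8 had 0 reads and Epcam, a defining gene of epithelium, was held by 1 cell. Endothelial Pecam1 was held by 1 cell.

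The remaining lists gave these counts past 2-fold, against 22.9% higher and 14.7% lower among all measured genes. Of 13 measured fibroblast genes 3 were higher and 1 was lower (median log2 ratio −0.19), and of 16 mitotic genes 5 were higher and 4 lower (median 0.17). Of 5 intermediate filament genes 0 were higher and 1 was lower, and the median, 0.12, is that of Nes. Of 2 stathmin genes, Stmn2 among them (median 0.79), and 2 bone genes (median −0.07) 0 were past 2-fold either way. Of 2 muscle genes 1 was higher and 0 were lower (median 0.36), and the 1 measured macrophage marker, Cd68, was not past 2-fold. Of the endothelial, epithelial, neural crest and Schwann, and pluripotency lists 0 genes were measured.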
